A study of Homo sapiens with 8 samples.

Results

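Compounds 4 and 6, both phenolic antioxidants used in plastics, were compared directly with each other in 4 RNA sequencing libraries, 2 from cells treated with compound 4 and 2 from cells treated with compound 6, of 8 libraries in the series. They were chosen by the compound named in the sample labels, so no measured value entered the choice. The cells were HepG2, a human liver cancer cell line, carrying a CYP2C19 transgene kept under blasticidin selection. The controls, 2 DMSO libraries from cells of the same line, were used to see on which side a difference arose, and the remaining 2 libraries, from compound 5, entered the filter, the mean levels over 8 libraries and the estimate of the spread. Each compound was given at its own IC50, determined beforehand, so the molar doses were set separately for each compound and were not the same. The paper describes these IC50 values as rather comparable, and they came from an assay with a longer exposure than that before RNA extraction. Growth inhibition in the sequenced cultures was not analysed here. The labels name the libraries of each group day 1 and day 2, and these are called replicates 1 and 2. The study's methods give a single treatment time, a day, for every group, and the labels give the day as a time without saying what it counts. Were it the length of exposure, the libraries of a group would not be replicates, and the spread between them would include time. The labels do not say that the replicates were separate cultures, so the p-values measure only the spread between these libraries. Only 1 pair of compounds was compared.

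The molecules share most of their structure. Both are bisphenols in which a methylene bridge joins a pair of identical phenol rings, each with a methyl group. Beside the hydroxyl group of each ring, compound 4 carries a branched tert-butyl group, whereas compound 6 carries a cyclohexyl ring. Liver cells take up such xenobiotics and handle them with cytochromes P450, conjugating enzymes and transporters, whose genes are controlled by ligand-sensing receptors such as AHR and PXR. The same cells make cholesterol and fatty acids under the control of the SREBP transcription factors, which are held back when sterols are plentiful. They also hold metallothioneins, small proteins that bind zinc and copper and whose genes respond to free metal and to stress.

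The compound 4 libraries held 10772819 and 13042436 counts, the compound 6 libraries 10112250 and 10368600, and the DMSO libraries 9791659 and 11444500. Of 60230 genes in the file, 13400 were tested. The hepatocyte markers ALB, AFP, APOB and SERPINA1 were at 2962 CPM (counts scaled to library size) or more in each of these 6 libraries. Of 14 markers of other cell types, 6 had at most 3 counts in any of the 6 libraries, among them the collagens COL1A1, COL1A2 and COL3A1 and the leukocyte marker PTPRC. The 14 markers summed to 1903 and 1454 CPM under compound 4 and to 1921 and 1623 CPM under compound 6, nearly all of it from LYZ, a lysozyme. Without LYZ the sums were 76.3 and 75.3 CPM and 60.1 and 55.0 CPM, respectively, and their part in the results was not tested. CYP2C19, the overexpressed gene, was at 31.4 and 44.3 CPM under compound 4, 23.9 and 21.2 CPM under compound 6, and 27.7 and 16.4 CPM in DMSO. Both compound 4 libraries were above the others, and the log2 difference between the compounds was 0.75 (95% interval 0.17 to 1.33, adjusted p = 0.565, edgeR quasi-likelihood test with Benjamini-Hochberg adjustment). Leaving out single libraries kept it between 0.48 and 0.97. In bulk RNA, fewer cells that express a gene and less RNA per cell cannot be told apart.

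No gene passed an adjusted p of 0.05 in the direct comparison with the edgeR quasi-likelihood test (0 of 13400, or 0%). The lowest adjusted p was 0.0553, reached by CYP1A1, BCAM and HMGCS1 and by 1 gene without a symbol in the gene annotation used. At an unadjusted p under 0.05 there were 945 genes (7.05%), of which 486 (3.63%) were higher and 459 (3.43%) lower under compound 4. The DESeq2 Wald test called 59 of 11893 genes (0.496%), 33 (0.277%) higher and 26 (0.219%) lower under compound 4. Of its 26 lower genes, 9 were cholesterol synthesis enzymes, 6 belonged to fatty acid synthesis, and 1 was ABCA1. Of its 33 higher genes, 6 were metallothioneins or the zinc exporter SLC30A1. A fit of the 6 libraries without compound 5 called 11 genes, among which OAS1, SLC16A6, CYP1A1 and ATOH8 were higher under compound 4 and PNPLA3, HMGCS1, ABCA1, FASN and BCAM lower. With the replicate number as a block, MT1G alone passed. When 1 library was left out, 10 genes passed for compound 5 replicate 1, 13 for compound 5 replicate 2, 2 for compound 6 replicate 2 and 0 for each of the others.

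For these libraries, the interval of each gene, taken on its own, also bounded its difference between the compounds. For 10752 of the 13400 genes (80.2%), the 95% interval of the log2 difference lay within 1 unit either side of 0, that is within a doubling or halving. The median absolute log2 difference was 0.14, and the median interval reached 0.37 to either side of its estimate. Genes with a log2 difference of 3 or more in size numbered 23, and each of them had a mean of at most 2.05 CPM and at least 1 of the 4 libraries at 0 counts, so that they carried little weight. Both compound 4 libraries were above both compound 6 libraries for 2546 genes (19%) and below them for 2631 (19.6%), and these shares are the background against which the gene groups are read.

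Against DMSO the compounds differed in the number of genes past the threshold. Compound 4 changed 1275 genes (9.51%), with 751 (5.6%) higher and 524 (3.91%) lower, and compound 6 changed 77 (0.575%), with 66 (0.493%) higher and 11 (0.0821%) lower. These counts rested on single libraries. For compound 4 they were 390 without DMSO replicate 1, 43 without DMSO replicate 2 and 152 without compound 4 replicate 2. For compound 6, leaving out DMSO replicate 1 or 2 or compound 6 replicate 2 gave 5, 2 or 4 genes. Leaving out a library of another compound gave 123 (compound 4 replicate 2), 432 (compound 5 replicate 1) or 396 (compound 5 replicate 2), and DESeq2 called 518. Both comparisons used the same DMSO libraries, so the counts are not independent of each other. Which genes passed for one compound and not for the other is therefore given below only beside the direct difference.

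The cholesterol synthesis enzymes were the largest block of lipid genes on the lower side of compound 4. All 20 listed enzymes were tested. Their log2 difference was below 0 for 19 of 20, the median was −0.68, compared to −0.01 over all genes tested, and 18 of 20 had both compound 4 libraries below both compound 6 libraries. At an unadjusted p under 0.05, 15 were lower and none higher. None passed the adjusted threshold with edgeR, and 9 did so with DESeq2 (among them CYP51A1, FDFT1, HMGCS1, IDI1, LSS, MSMO1, MVD and SQLE). The median log2 change against DMSO was −1.59 under compound 4, where 19 enzymes fell, and −0.91 under compound 6, where 6 fell (among them HMGCS1, ACAT2, CYP51A1, SQLE and EBP). The median direct difference was −0.55 from the replicate 1 libraries alone and −0.79 from the replicate 2 libraries alone, and leaving out single libraries moved it between −0.86 and −0.57.

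The first steps, from acetyl-CoA to farnesyl diphosphate, gave a median log2 difference of −0.77, with 7 of 8 enzymes lower. HMGCS1 makes HMG-CoA and lies on chromosome 5, 43289395 to 43313512 (GRCh38, minus strand). It was at 247 and 222 CPM in DMSO, 56.4 and 48.3 CPM under compound 4 and 109.6 and 103 CPM under compound 6. The 3 groups did not overlap, and the level under compound 6 was 2.03 times that under compound 4. The log2 difference was −1.02 (95% interval −1.31 to −0.74, adjusted p = 0.0553 with edgeR, and 4.77e-10 to 0.529 over the alternatives). IDI1 (−1.01), MVD (−0.82), ACAT2 (−0.72), MVK (−0.58) and FDPS (−0.48) were lower in both compound 4 libraries too. PMVK, which phosphorylates phosphomevalonate, was the exception, at 7.88 and 7.98 CPM under compound 4, 7.75 and 7.39 CPM under compound 6 and 6.87 and 8.04 CPM in DMSO, a log2 difference of 0.07 (−0.43 to 0.57).

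In the middle of the pathway, where squalene is made, oxidized and closed into the sterol rings, all 8 enzymes were lower under compound 4 and none overlapped between the compounds, with a median log2 difference of −0.77. MSMO1, which removes methyl groups from the sterol ring, was at 138 and 128 CPM in DMSO, 36.7 and 23.0 CPM under compound 4 and 65.4 and 57.4 CPM under compound 6. The replicates of compound 4 lay further apart than those of compound 6, and the log2 difference was −1.05 (−1.57 to −0.53). FDFT1, squalene synthase, was at 97.1 and 75.8 CPM under compound 4 and 172 and 162 CPM under compound 6, a log2 difference of −0.95 (−1.36 to −0.54). HSD17B7 (−0.94), LSS (−0.80), SQLE (−0.73), TM7SF2 (−0.64), CYP51A1 (−0.60) and NSDHL (−0.25) followed.

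For the last steps, which turn the sterol intermediates into cholesterol, the difference between the compounds was smaller, although no test compared the steps. The median log2 difference of the 4 enzymes was −0.24, and the 95% interval of each lay within 1 unit either side of 0. DHCR7 was at 375 and 332 CPM in DMSO, 152 and 104 CPM under compound 4 and 199 and 166 CPM under compound 6, a log2 difference of −0.52 (−0.96 to −0.07). SC5D (−0.24) and EBP (−0.24) had smaller differences, and the libraries of SC5D overlapped while those of EBP did not.

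**Figure D1:**
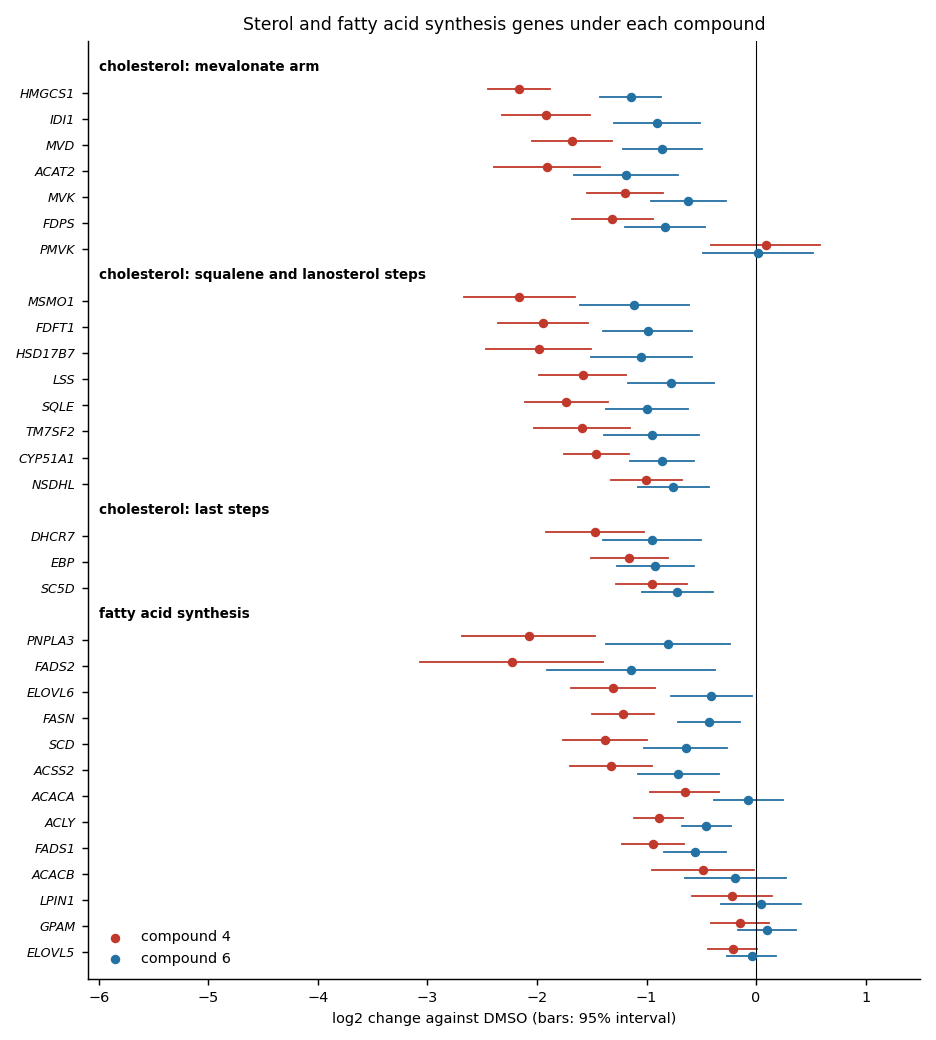
log2 change against DMSO (horizontal axis) of 18 of the 20 cholesterol synthesis and of the 13 fatty acid synthesis genes under compound 4 (red) and compound 6 (blue), with bars for the 95% interval from the fit of 8 libraries. For HMGCS1 the change was −2.17 under compound 4 and −1.15 under compound 6, whereas for PMVK both values were near 0.

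Among the genes of SREBP processing and lipoprotein uptake, the sterol transport protein STARD4 had a log2 difference of −0.71 (−1.05 to −0.37) and the transcription factor SREBF2 one of −0.31 (−0.55 to −0.08). For SCAP and MBTPS1, which carry and cut the SREBP precursors, the intervals ran from −0.20 to 0.30 and from −0.17 to 0.26. Over the 13 tested genes of this list, 9 were lower and 4 higher under compound 4, 6 of them without overlap on the lower side and 1 on the higher side, with a median of −0.15 (−0.08 without compound 4 replicate 2).

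All 13 fatty acid synthesis genes had a log2 difference below 0, with a median of −0.58. Of these, 11 had both compound 4 libraries below both compound 6 libraries and 9 had an unadjusted p under 0.05. Against DMSO their median log2 change was −0.94 under compound 4, where 9 of them fell, and −0.43 under compound 6, where none passed. FASN, the fatty acid synthase, lies on chromosome 17, 82078333 to 82098332. It was at 1317 and 1237 CPM in DMSO, 525 and 575 CPM under compound 4 and 971 and 927 CPM under compound 6. The 3 groups were apart, with a log2 difference between the compounds of −0.79 (−1.07 to −0.50, adjusted p = 0.139 with edgeR, and 2.18e-08 to 0.716 over the alternatives). PNPLA3, a lipase of lipid droplets, was at 7.51 and 6.92 CPM under compound 4, 17.9 and 16.9 CPM under compound 6 and 29 and 31.7 CPM in DMSO, a log2 difference of −1.27 (−1.89 to −0.65). The desaturases FADS2 (−1.09), SCD (−0.74) and FADS1 (−0.38) and the elongase ELOVL6 (−0.89) lay on the same side, as did ACSS2 (−0.61), ACACA (−0.58) and ACLY (−0.43), which supply acetyl-CoA and malonyl-CoA. For ACACA the level under compound 6 was 150 and 151 CPM, close to the 153 and 163 CPM of DMSO, and that under compound 4 was 87.6 and 114 CPM. ACACB, LPIN1, GPAM and ELOVL5 had intervals that included 0.

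The sterol efflux pump ABCA1, a target of the oxysterol receptors LXR, differed through compound 4. It was at 42.1 and 45.2 CPM under compound 4, 89.4 and 75.2 CPM under compound 6 and 87.9 and 84.4 CPM in DMSO. The compound 6 libraries lay on either side of the DMSO libraries, and both compound 4 libraries were far below. The log2 difference between the compounds was −0.91 (−1.23 to −0.60, adjusted p = 0.135 with edgeR, and 4.04e-07 to 0.716 over the alternatives), and against DMSO ABCA1 fell under compound 4 (adjusted p = 0.00563 with edgeR) and had an adjusted p of 0.833 under compound 6. MYLIP, a ubiquitin ligase and another LXR target, differed with the higher values under compound 6, at 9.32 and 9.10 CPM, compared to 5.25 and 4.56 CPM under compound 4 and 5.23 and 5.69 CPM in DMSO. Its log2 difference was −0.91 (−1.36 to −0.46). The other 6 tested LXR genes had intervals that included 0, and the median of the 8 was −0.17. PLIN2, which coats lipid droplets, had the opposite sign, at 1059 and 986 CPM under compound 4, 629 and 688 CPM under compound 6 and 704 and 574 CPM in DMSO. Its log2 difference was 0.64 (0.30 to 0.97), and PLIN2 rose against DMSO under compound 4 (adjusted p = 0.0252). BCAM, a laminin receptor outside these lists, was at 87.1 and 70.0 CPM under compound 4, 153 and 155 CPM under compound 6 and 206 and 197 CPM in DMSO, a log2 difference of −0.97 (−1.24 to −0.71, adjusted p = 0.0553 with edgeR, and 1.39e-09 to 0.529 over the alternatives).

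The metallothioneins showed the widest difference in the other direction. Of 7 listed genes, 6 were tested, and each had both compound 4 libraries above both compound 6 libraries and an unadjusted p under 0.05. The median log2 difference was 1.28. Against DMSO all 6 rose under compound 4, whereas under compound 6 MT2A alone rose. MT1G was at 59.2 and 79.6 CPM under compound 4, 19.3 and 30.6 CPM under compound 6 and 20.9 and 24.2 CPM in DMSO. The compound 6 libraries lay on either side of the DMSO libraries. The log2 difference was 1.48 (0.95 to 2.00), with an adjusted p of 0.139 by edgeR, 0.0262 with the replicate block and 3.26e-07 by DESeq2, in a range of 5.54e-17 to 0.665 over all alternatives. MT2A, the most abundant of them, was at 196 and 263 CPM under compound 4, 74.7 and 122 CPM under compound 6 and 38.3 and 40.0 CPM in DMSO, a log2 difference of 1.22 (0.75 to 1.69). MT1X (1.44), MT1E (1.34) and MT1F (0.95) had the same order, and so did SLC30A1, which exports zinc from the cell, at 119 and 136 CPM under compound 4, 72.5 and 86.3 CPM under compound 6 and 72.2 and 71.6 CPM in DMSO (log2 difference 0.68, 0.42 to 0.95). In both groups replicate 2 was above replicate 1 for each of the 6 genes, and the median difference was 1.43 from the replicate 1 libraries alone and 1.17 from the replicate 2 libraries alone. The metallothionein genes are near-identical copies in 1 cluster on chromosome 16, so the split of reads among them is uncertain.

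The promoters of these genes are shown because the members moved on the same side, and because metal-dependent transcription acts through a short element in them. Of the 7 listed genes, 3 matched RefSeq promoters (GRCh38.p14). The 250 bases before the annotated start of each are printed 5′ to 3′ on the gene's strand, with the capitals marking the core of the metal response element, TGCACNC or TGCGCNC, on either strand:
MT2A: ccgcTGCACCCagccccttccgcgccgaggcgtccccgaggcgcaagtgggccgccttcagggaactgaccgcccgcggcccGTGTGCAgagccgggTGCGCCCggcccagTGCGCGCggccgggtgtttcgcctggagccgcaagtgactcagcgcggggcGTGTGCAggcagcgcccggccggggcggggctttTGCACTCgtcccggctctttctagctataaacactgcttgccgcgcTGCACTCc
MT1X: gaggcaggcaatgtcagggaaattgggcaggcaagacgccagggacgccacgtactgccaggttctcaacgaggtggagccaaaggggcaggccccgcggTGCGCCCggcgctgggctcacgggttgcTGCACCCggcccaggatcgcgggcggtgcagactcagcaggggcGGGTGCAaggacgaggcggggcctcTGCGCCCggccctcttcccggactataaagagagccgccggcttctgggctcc
SLC30A1: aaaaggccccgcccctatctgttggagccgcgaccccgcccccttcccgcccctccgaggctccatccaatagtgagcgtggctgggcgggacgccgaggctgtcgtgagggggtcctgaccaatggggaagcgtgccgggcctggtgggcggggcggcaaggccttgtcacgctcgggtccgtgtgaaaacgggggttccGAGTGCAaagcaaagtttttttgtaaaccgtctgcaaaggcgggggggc
These windows are chr16:56608334-56608583 for MT2A and chr16:56682220-56682469 for MT1X, both on the plus strand, and chr1:211579162-211579411 for SLC30A1 on the minus strand. The core was found 7 times before MT2A, 4 times before MT1X and once before SLC30A1. A short core such as this is common, and 24.7% of all 27305 promoters of this length held it at least once. A match is a description of the letters and not of binding. The sterol regulatory element TCACNCCAC was found in 0.875% of all promoters and in 0 of 15 available promoters of the cholesterol synthesis enzymes, which says only that these letters were absent from these windows on both strands.

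CYP1A1, a classical target of the aryl hydrocarbon receptor AHR and an oxidase of aromatic compounds, had the lowest p of all genes. It lies on chromosome 15, 74719542 to 74725610 (minus strand). It was at 59.5 and 69.1 CPM under compound 4, 15.5 and 23.2 CPM under compound 6 and 5.94 and 4.69 CPM in DMSO. The 3 groups did not overlap, and CYP1A1 rose against DMSO under both compounds. The level under compound 4 was 3.32 times that under compound 6, a log2 difference of 1.73 (1.30 to 2.16, adjusted p = 0.0553 with edgeR, and 2.88e-20 to 0.324 over the alternatives). ALDH3A1, another AHR target at a low level, had a log2 difference of 0.99 (0.24 to 1.74). AHR itself was at 242 and 263 CPM under compound 4 and 263 and 254 CPM under compound 6, with an interval of −0.45 to 0.39, and TIPARP had one of −0.33 to 0.40.

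The genes of the PXR and CAR receptors, which sense drugs, differed among themselves. CYP3A5 was at 19.3 and 12.8 CPM under compound 4, 8.24 and 5.12 CPM under compound 6 and 4.41 and 2.35 CPM in DMSO, a log2 difference of 1.26 (0.48 to 2.05). CYP3A7, another member of the CYP3A family, stayed below 4 CPM, with 3.38 and 2.28 CPM under compound 4 and 1.27 and 0.28 CPM under compound 6. CYP2B6, the classical CAR target, was at 20.4 and 25.7 CPM under compound 4, 21.0 and 29.8 CPM under compound 6 and 10.2 and 6.45 CPM in DMSO. Its libraries overlapped between the compounds, with a log2 difference of −0.14 (−0.84 to 0.56). Of the 10 tested genes, 7 were higher and 3 lower under compound 4, with 5 and 2 without overlap, and the median was 0.18.

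NRF2 is the transcription factor that answers oxidative and electrophilic stress. Of its 28 tested targets, 26 were higher under compound 4 and 14 of them had no overlap, 8 with an unadjusted p under 0.05, but the median was small, at 0.14. The median was 0.06 when replicate 1 of compound 6 was left out and 0.25 when its replicate 2 was. The aldo-keto reductases AKR1B10 (0.46), AKR1C1 (0.43), AKR1C2 (0.47) and AKR1C3 (0.37) and the heme oxygenase HMOX1 (0.48) were higher under compound 4. The AKR1C genes are close copies of each other, so their counts may be shared. SLC7A11, the cystine importer, was at 109 and 158 CPM under compound 4 and 168 and 217 CPM under compound 6, compared to 64.9 and 56.6 CPM in DMSO. It rose against DMSO under both compounds, and the interval of its direct difference was −1.15 to 0.08. SQSTM1, an autophagy receptor also induced by NRF2, rose under both compounds, with 1325 and 1632 CPM under compound 4, 756 and 1217 CPM under compound 6 and 399 and 351 CPM in DMSO (log2 difference 0.58, 0.07 to 1.09).

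The mitochondrially encoded genes were lower under compound 4 in all 13 cases, with a median log2 difference of −0.37. Of these, 7 had no overlap and 5 had an unadjusted p under 0.05. Together they took 5.93% and 5.13% of the counts under compound 4, 7.78% and 6.9% under compound 6 and 7.5% and 5.87% in DMSO. In each group replicate 1 had the higher share, and the median difference was −0.29 from the replicate 1 libraries alone and −0.46 from the replicate 2 libraries alone. Leaving out 1 library, which leaves replicate numbers unequal between the groups, gave −0.15 for compound 4 replicate 2, −0.63 for compound 4 replicate 1 and −0.25 for compound 6 replicate 1. None of the 13 passed against DMSO under either compound. MT-ND6, the only one encoded on the light strand, was at 58.2 and 55.7 CPM under compound 4, 149 and 79.4 CPM under compound 6 and 137 and 71.7 CPM in DMSO. Its log2 difference was −1.001 (−1.77 to −0.23), and the replicates of compound 6 differed almost as much as the groups. The respiratory chain genes of the nucleus did not share this, with a median of 0.06 over 27 genes and each interval within 1 unit either side of 0. With the mitochondrially encoded genes left out of the fit, 0 genes passed in the direct comparison and the median of the cholesterol enzymes was −0.68.

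Several large groups had small differences that lay mostly on one side. All 36 cytosolic ribosomal protein genes were higher under compound 4 and 29 of them had no overlap, with a median log2 difference of 0.15 (0.09 without compound 4 replicate 1), whereas 2 had an unadjusted p under 0.05 and none passed against DMSO. Of 14 heat shock genes 13 were higher, 11 without overlap, and the median was 0.27. HSPA1A was at 202 and 218 CPM under compound 4 and 128 and 150 CPM under compound 6, but its DMSO libraries, at 130 and 210 CPM, spanned most of that range. Its counts are uncertain, since HSPA1B is a near-identical copy. None of the 14 passed against DMSO. The genes of 1 complex or response vary together, so these counts describe each list once and not many independent genes.

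Among the genes of cell division, those of mitosis and DNA replication lay mostly on the lower side of compound 4, and none passed in the direct comparison. Of 47 mitosis genes 46 had a log2 difference below 0, 36 had no overlap and 3 had an unadjusted p under 0.05 (CENPF, TOP2A and KIF11), with a median of −0.22. Against DMSO the median was −0.75 under compound 4, where 33 fell, and −0.54 under compound 6, where none passed. CENPF, a kinetochore protein, was at 62.6 and 91.5 CPM under compound 4, 113 and 106 CPM under compound 6 and 149 and 182 CPM in DMSO, a log2 difference of −0.51 (−0.93 to −0.08). Of 41 DNA replication genes 38 were lower, 22 without overlap, with a median of −0.13 and each interval within 1 unit either side of 0. The median against DMSO was −0.61 under compound 4, where 18 fell, and −0.53 under compound 6, where none passed. E2F7, a repressor of the G1/S program, was at 4.60 and 4.11 CPM under compound 4, 7.75 and 7.49 CPM under compound 6 and 15.5 and 13.7 CPM in DMSO, a log2 difference of −0.81 (−1.38 to −0.24).

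For some genes that passed against DMSO the direct difference was close to 0, with the bounds given by its interval. ABCC3, an efflux pump for conjugates, was at 130 and 140.4 CPM under compound 4, 133 and 135.5 CPM under compound 6 and 63.0 and 51.2 CPM in DMSO. It rose under both compounds, and the direct log2 difference was 0.01 (−0.26 to 0.28). The ERK feedback genes DUSP6 and SPRY4 also rose under both, with direct intervals of −0.21 to 0.29 and −0.39 to 0.25. DUSP4, another phosphatase of that feedback, was at 10.8 and 17.6 CPM under compound 4, 6.57 and 9.10 CPM under compound 6 and 3.08 and 2.09 CPM in DMSO. Its libraries did not overlap between the compounds, and the direct log2 difference was 0.86 (0.17 to 1.56). APOA4 fell under both compounds, at 13.98 and 11.6 CPM under compound 4, 13.2 and 12.5 CPM under compound 6 and 24.5 and 30.2 CPM in DMSO, and its direct interval was −0.45 to 0.42. APOA1, the main protein of HDL, was at 2171 and 1502 CPM under compound 4, 1996 and 1632 CPM under compound 6 and 3556 and 3278 CPM in DMSO, with a direct interval of −0.36 to 0.39. It passed against DMSO under compound 4 (adjusted p = 0.0150), and under compound 6 the adjusted p was 0.0510 at nearly the same change (−0.90 and −0.91).

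The bounds were wider where the replicates of a compound disagreed. GDF15, a stress hormone, was at 1446 and 2075 CPM under compound 4, 871 and 1657 CPM under compound 6 and 384 and 255 CPM in DMSO. It rose under both compounds, and the direct interval ran from −0.28 to 1.24. JAG1, a Notch ligand, was at 469 and 795 CPM under compound 4 and 431 and 762 CPM under compound 6, with an interval of −0.62 to 0.79. Replicate 2 was the higher under both compounds for each of these genes. ASNS, asparagine synthetase, had an interval of −0.83 to 0.24, and EGR1, an immediate early gene at 14.4 and 12.6 CPM under compound 4 and 15.2 and 28.5 CPM under compound 6, one of −1.50 to 0.10. The p53 targets had a median of 0.00 over 22 genes, with none at an unadjusted p under 0.05, and the integrated stress response genes one of −0.03 over 31. The medians of the ER chaperones (0.07), tRNA synthetases (−0.06), proteasome (0.06), autophagy genes (0.09), fatty acid oxidation genes (0.01), G1/S regulators (−0.06) and ERK feedback genes (−0.02) were close to 0 too. The hepatocyte transcription factors had a median of 0.12. For other lists single libraries set the size of the median. That of the hypoxia and glycolysis genes was 0.16, and −0.06 or 0.39 without compound 4 replicate 1 or 2 and 0.30 or 0.07 without compound 6 replicate 1 or 2. That of the Notch, TGF-beta and YAP targets was 0.17, and 0.27 or 0.10 with the same compound 4 libraries left out and 0.10 or 0.44 with those of compound 6 left out. That of the invasion and adhesion genes was 0.16, with 0.34 or 0.05 for the compound 4 libraries. That of the NF-kB genes was −0.175, and it was −0.07 or −0.08 for the compound 4 libraries and 0.02 for compound 6 replicate 2.

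Some single genes outside the metabolic lists differed with tight replicates. SLC16A6, a carrier of the monocarboxylate transporter family, lies on chromosome 17, 68267026 to 68291267. It was at 53.8 and 53.6 CPM under compound 4, 25.8 and 26.0 CPM under compound 6 and 5.53 and 4.52 CPM in DMSO. It rose against DMSO under both compounds, and the direct log2 difference was 1.05 (0.75 to 1.36, adjusted p = 0.0554 with edgeR, and 1.9e-07 to 0.529 over the alternatives). ATOH8, a transcription factor on chromosome 2, was at 7.88 and 9.51 CPM under compound 4, 2.26 and 2.37 CPM under compound 6 and 1.74 and 1.84 CPM in DMSO, a log2 difference of 1.91 (1.33 to 2.48). OAS1, an interferon-induced sensor of double-stranded RNA, was at 94.1 and 90.3 CPM under compound 4, 51.7 and 54.7 CPM under compound 6 and 38.6 and 35.8 CPM in DMSO (0.79, 0.52 to 1.07). The calcium-binding protein S100A4 had a log2 difference of 1.01 (0.57 to 1.45), with compound 4 higher. PLAUR, the urokinase receptor, had one of −1.01 (−1.68 to −0.33) at levels of 4.51 CPM or less.

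Secreted liver proteins had a median of 0.00 over 31 genes and differed in both directions. APOB, the protein of LDL, was at 5616 and 6978 CPM under compound 4, 9979 and 8108 CPM under compound 6 and 10510 and 8752 CPM in DMSO, a log2 difference of −0.52 (−0.84 to −0.20). Haptoglobin, HP, was at 16.04 and 10.1 CPM under compound 4, 24.1 and 20.3 CPM under compound 6 and 33.9 and 37.9 CPM in DMSO (−0.77, −1.24 to −0.31). Both fell against DMSO under compound 4. APOE was on the other side, at 1092 and 939 CPM under compound 4 and 834 and 774 CPM under compound 6 (0.34, 0.04 to 0.63). Among transport and sugar genes, SLC2A1 (0.45, 0.21 to 0.70) and SLC2A3 (0.77, 0.25 to 1.30), which carry glucose into the cell, were higher under compound 4. For SLC2A3 the compound 4 libraries, at 602 and 426 CPM, were near the 601 and 445 CPM of DMSO, and the compound 6 libraries were at 362 and 239 CPM.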

How the data were processed

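The submitters' processing notes name FastQC 0.12.0, Salmon 1.5.0, DESeq2 1.38.3 and GRCh38. Per the paper's methods, the authors estimated transcript abundance with Salmon on a GENCODE index and summarized it to genes with tximeta. The deposited values are estimated counts per gene, written as whole numbers and not normalized, so no rounding was needed. Use of the strand in counting is not given in the sources used here, so overlapping genes are uncertain. The labels mark DMSO replicate 1 and compound 4 replicate 1 as merged, without saying from what.

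Counts were analyzed in R 4.3.3 with edgeR 4.0.16 (TMM, filterByExpr at a minimum count of 10, quasi-likelihood test, 1 fit of 8 samples by group, Benjamini-Hochberg adjustment over 13400 genes, threshold 0.05). Intervals are 95% intervals from the standard error of that fit. Levels are CPM on TMM-scaled library sizes, and log2 differences are compound 4 minus compound 6. The procedure was tested on simulated data. Alternatives were DESeq2 1.42.0, the replicate block, other sample sets, size factors, other filters, and leaving out libraries or replicate numbers. Ranges of adjusted p over the alternatives include the fit without a filter and fits that left 1 library in a group. The ends of these ranges are therefore not to be read beside the adjusted p of the fit of 8 samples. Leaving out the mitochondrially encoded genes was added after seeing the data.

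The replicate numbers are the day in the labels, which is where the pairing comes from. Over genes, the replicate 2 minus replicate 1 differences of compounds 4 and 6 correlated at 0.302, and those of all pairs of groups at −0.163 to 0.302.

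The 32 lists (643 genes, 597 tested, 46 removed by the filter) and the rules were chosen with earlier results of these data known. Genes named by rule were the cholesterol enzymes, the extreme members of each other list with a mean of at least 1 CPM, the 12 non-overlapping genes with the lowest p in each direction, genes called in an alternative with at most 20 calls, CYP2C19 and genes the study names, and those of them without values in the text are left out for length. Members of a list were also named after their values were seen, among them ABCC3, DUSP6, SPRY4, GDF15, JAG1, MYLIP, STARD4, CYP2B6, CYP3A5, SLC7A11, APOB, SLC2A1 and SLC2A3. Sums of marker lists are CPM on TMM-scaled library sizes over all genes in the file. Positions are GRCh38 from GENCODE 29. Figures were made in Python 3.11.15 with pandas 2.3.3 and matplotlib 3.10.9. Some members of the lists, counted in the totals, are not reported here by name. Samples of compound 5 were not compared here.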

Additional observations from a re-analysis of the deposited data

How the results depend on the processing

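In the direct comparison, 0 genes passed the threshold in the fit of 8 samples, with size factors, in the fit of 4 samples and without the mitochondrially encoded genes. With DESeq2 59 passed, with the replicate block 1 (pairing by day), without compound 5 11, without a filter 259, and with 10 counts in every sample 5. Leaving out single libraries gave 0 to 13. At an unadjusted p under 0.05, 945 genes became 607 with DESeq2, 1503 without a filter, 1241 with the replicate block and 572 to 1148 with single libraries left out. For compound 4 against DMSO, 1275 calls became 2383 without a filter and between 43 and 1681 with libraries left out. For compound 6 against DMSO, 77 calls became 518 with DESeq2, 452 without compound 5, 47 with size factors, 1355 without a filter, 198 with 10 counts in every sample and 2 to 432 with libraries left out. The cause of these shifts was not tested.

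The median of the 20 cholesterol enzymes was −0.68 and ranged from −0.86 to −0.55 with libraries or replicates left out. Over 30 list medians and 539 alternatives, 497 moved by less than the spread between replicates, and 22 had the opposite sign, in the lists of fatty acid oxidation, p53, the integrated stress response, tRNA synthetases, AHR, hypoxia, ERK, NF-kB, secreted liver proteins and the nuclear respiratory chain. Of 1652 alternatives for 92 named genes, 1509 kept side and direction and 125 passed the threshold where the fit of 8 samples did not. The 18 reversals all came from leaving out libraries or replicates, in genes whose intervals included 0. Their log2 differences then ranged from −0.11 to 0.0499 for AHR, −0.28 to 0.26 for APOA1, −0.15 to 0.12 for APOA4, −0.0204 to 0.31 for ECT2, −0.33 to 0.0187 for HSPA9, −0.32 to 0.0889 for LYZ, −0.0045 to 0.43 for NR1H2, −0.24 to 0.15 for SDHD and −1.54 to 0.19 for TIGAR.

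With 2 libraries a group, the fit borrows its spread from all 4 groups, and genes near 1 CPM rest on about 10 counts a library.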
